A study of Mus musculus with 15 samples.

Results

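The cytosolic ribosomal protein genes encode the proteins of the large and small subunits of the cytoplasmic ribosome. Members were chosen by gene symbol alone: names of the form Rpl or Rps followed by a number and an optional letter, with Rpsa, Rplp0, Rplp1 and Rplp2, and without the S6 kinases and names marked as pseudogenes. The rule found 87 members among the 27573 genes of the batch 1 FPKM table and 84 among the 13063 named genes of batch 2. By role, 43 members were proteins of the large subunit, 31 of the small subunit and 3 of the stalk, and these 77 are called core members here. Another 6 were paralogs of a core protein (Rpl22l1, Rpl39l, Rpl3l, Rpl7l1, Rps27l and Rps4l), and 4 were further copies (Rpl6l, Rps12l1, Rps3a2 and Rps3a3). GENCODE vM21 typed 82 members as protein coding, 4 as processed pseudogenes and 1, Rps4l, as a transcribed processed pseudogene.

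The study profiled cultured satellite cells, the stem cells of skeletal muscle, taken from mouse hindlimb muscle, by RNA sequencing in 15 libraries. All cells grew in F10 medium with 10% horse serum and were treated for 24 hours. Batch 1 held 3 libraries with DMSO and 3 with 0.05 mM adenosine. Batch 2, from C57BL/6J mice per the labels, held 3 libraries with DMSO, 3 with 0.1 mM adenosine and 3 with 0.25 mM adenosine monophosphate (AMP, adenosine with a phosphate on its sugar). The adenosine dose therefore changed together with the batch, and the doses of adenosine and AMP differed. The labels leave unsaid whether replicates are different mice, dishes or preparations, so all p-values measure the spread between libraries, which may be technical.

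Ribosomal proteins are made in near-equal numbers and assembled on ribosomal RNA in the nucleolus, so their genes are usually expressed together and rank among the most abundant mRNAs of growing cells. Their mRNAs typically begin with a C followed by an unbroken run of pyrimidines, the 5′ terminal oligopyrimidine (TOP) motif, through which the kinase complex mTORC1 and the binding protein Larp1 control their translation and stability. Some members also have known links to signalling. Rpl5 and Rpl11 bind Mdm2, the ubiquitin ligase of p53, outside the ribosome, and Rps6 is the classic target of the S6 kinases. Satellite cells raise ribosome production when they leave quiescence.

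The start regions of the members that carry the main results are shown first. Each line gives 30 bases before and 20 bases from the start annotated by RefSeq on GRCm38.p6, from 5′ to 3′ on the gene's own strand, with the longest run of pyrimidines that begins with C near the start in capitals. The first set is among the largest falls after treatment: Rpl7a (chr2:26910777-26910826, plus strand), Rpl13a (chr7:45128726-45128775, minus strand), Rps12 (chr10:23787190-23787239, minus strand) and Rps2 (chr17:24720033-24720082, plus strand).
Rpl7a: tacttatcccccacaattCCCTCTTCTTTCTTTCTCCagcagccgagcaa
Rpl13a: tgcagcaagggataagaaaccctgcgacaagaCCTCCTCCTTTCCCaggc
Rps12: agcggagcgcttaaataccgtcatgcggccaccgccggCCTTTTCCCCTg
Rps2: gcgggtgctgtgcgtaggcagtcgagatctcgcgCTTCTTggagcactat
The second set passed the test in no comparison with DMSO: Rpl18 (chr7:45718041-45718090, plus strand), Rpl38 (chr11:114668550-114668599, plus strand), Rplp0 (chr5:115559437-115559486, plus strand) and Rpl24 (chr16:55966245-55966294, plus strand).
Rpl18: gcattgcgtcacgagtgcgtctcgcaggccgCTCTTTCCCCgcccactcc
Rpl38: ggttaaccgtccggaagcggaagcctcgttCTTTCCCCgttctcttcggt
Rplp0: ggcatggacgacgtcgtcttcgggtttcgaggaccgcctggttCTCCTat
Rpl24: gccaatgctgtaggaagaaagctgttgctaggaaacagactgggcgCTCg
The last pair is a core gene and its paralog that parted after treatment: Rps27 (chr3:90213629-90213678, minus strand) and Rps27l (chr9:66946056-66946105, plus strand, the first of its 2 annotated starts).
Rps27: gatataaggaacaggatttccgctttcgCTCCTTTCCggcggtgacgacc
Rps27l: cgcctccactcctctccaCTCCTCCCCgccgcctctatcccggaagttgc
Long runs stand both in genes that fell, such as Rpl7a with 19 bases and Rpl13a with 14, and in genes that did not pass the test, such as Rpl18 with 10 and Rpl38 with 8.

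Each library of batch 1 held 14683346 to 20799588 counts in total, and each of batch 2 held 11107450 to 14201933. The 8 satellite cell markers were all detected and summed to 6706 to 6926 CPM (counts scaled to library size alone) with DMSO in batch 1 against 4285 to 5175 with adenosine. In batch 2 they summed to 5413 to 5935 with DMSO, 3136 to 3816 with adenosine and 3495 to 4235 with AMP. The sums hide markers that rose. In the gene-by-gene test described below, 6 of the 8 were lower and 1 higher in batch 1. With adenosine in batch 2 these were 6 and 2, and with AMP 5 and 2. Of all genes, 19.5%, 34.5% and 31.8% were lower and 19.6%, 34.9% and 33.7% higher in these comparisons. Leukocyte markers, 6 of 7 in the batch 1 table and 2 in that of batch 2, summed to 1.86 to 3.02 CPM with DMSO and 13.7 to 19.2 with adenosine in batch 1, where Adgre1 and Csf1r had no count with DMSO. They summed to 1.66 to 3.31, 12.1 to 15.7 and 12.3 to 16.3 CPM with DMSO, adenosine and AMP in batch 2. Endothelial markers summed to 5.10 to 6.72 CPM with DMSO and 17.96 to 22.5 with adenosine in batch 1. In batch 2, where 2 of 4 were in the table, they summed to 2.00 to 5.26 with DMSO, 9.15 to 10.3 with adenosine and 9.24 to 12.7 with AMP. Markers of fibro-adipogenic progenitors summed to 2.12 to 3.52 CPM with DMSO and 2.31 to 9.06 with adenosine in batch 1, and the 1 of 5 in the batch 2 table stood at 0.14 to 0.88, 1.24 to 4.22 and 0.81 to 4.10. Those of smooth muscle and pericytes summed to 3.59 to 4.69 and 2.30 to 7.02 in batch 1, and the 1 of 4 in the batch 2 table stood at 1.41 to 2.26 with DMSO, 0.24 to 0.51 with adenosine and 0.34 to 0.72 with AMP. The part of these shifts in the ribosomal protein results was not tested. In bulk libraries, fewer cells of a type and less RNA per cell cannot be told apart. The labels mention no spike-in, so a value says how much of its library a gene took up, not how many molecules a cell held.

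Ribosomal protein mRNA took a smaller share of each library after either compound. The members together held 6.81%, 7.77% and 8.91% of counts in the 3 DMSO libraries of batch 1 and 5.39%, 4.81% and 4.79% with 0.05 mM adenosine, or 7.83% ± 1.05 against 4.995% ± 0.34 (SD, n = 3 each). In batch 2 the DMSO libraries held 7.01%, 7.01% and 7.28%, those with 0.1 mM adenosine 4.07%, 4.64% and 4.94%, and those with 0.25 mM AMP 5.04%, 4.66% and 4.36%. No treated library reached the lowest DMSO library of its batch. Named ribosomal protein pseudogenes held 0.0493% ± 0.0046 of counts with DMSO and 0.0321% ± 0.0027 with adenosine in batch 1.

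**Figure D1:**
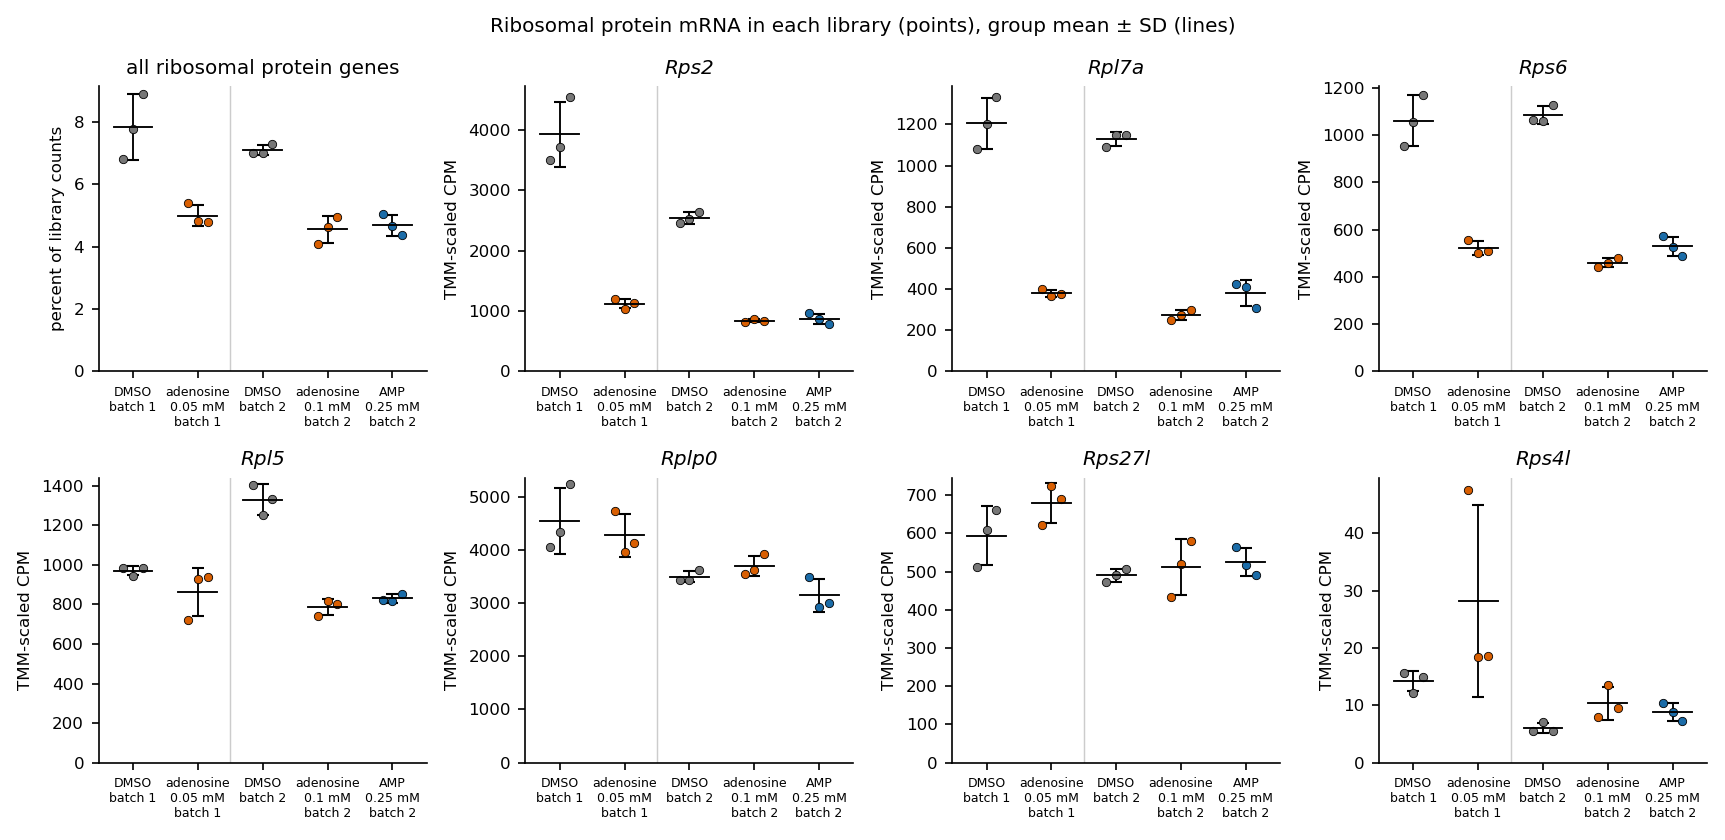
Share of library counts held by all ribosomal protein genes (first panel, percent) and levels of 7 members (TMM-scaled CPM) in each library (points), with the group mean and SD (lines, n = 3). Rps2, Rpl7a and Rps6 sit apart from DMSO in all treated libraries, Rplp0 and Rps27l overlap with it, and Rps4l lies above it, with 1 adenosine library of batch 1 at 47.6 CPM.

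Per length, the core members spanned a wide range. With DMSO in batch 1 their median was 575 FPKM (fragments scaled to exon length and library size), and it was 303 FPKM with adenosine. The corresponding medians in batch 2, whose table was normalized separately, were 603 FPKM with DMSO, 295 with adenosine and 324 with AMP. The highest levels with DMSO in batch 1 belonged to Rplp1 (2779 ± 884 FPKM), Rplp0 (2718 ± 373), Rpl4 (2417 ± 250), Rps2 (2133 ± 297) and Rps26 (2126 ± 714; SD, n = 3). The SDs of these neighbours overlapped, so their order is not resolved. Rplp0 had the highest mean of the core members in all 3 treated groups, at 2541 ± 248 FPKM with adenosine in batch 1.

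Counts were then tested gene by gene with edgeR across the whole table of each batch, with Benjamini-Hochberg adjustment over all genes tested and a threshold of 0.05 on the adjusted p. Of the 84 members tested in batch 1, 65 were lower with 0.05 mM adenosine, 1 was higher and 18 did not pass. Over all 13842 genes tested, 19.5% were lower and 19.6% higher in that comparison, or 39.2% in either direction. The median log2 fold change was -0.83 over the members (1.78-fold lower) and 0.03 over all genes. With 0.1 mM adenosine in batch 2, 77 of 84 members were lower and 1 was higher, where 34.5% of all 13063 genes were lower and 34.9% higher (69.4% in either direction). The member median there was -0.97, against 0.01 over all genes. With 0.25 mM AMP, 77 were again lower and 1 higher, with a background of 31.8% lower and 33.7% higher (65.6% in either direction) and a member median of -0.90, against 0.01 over all genes. The adenosine and AMP comparisons of batch 2 share the same 3 DMSO libraries.

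**Figure D2:**
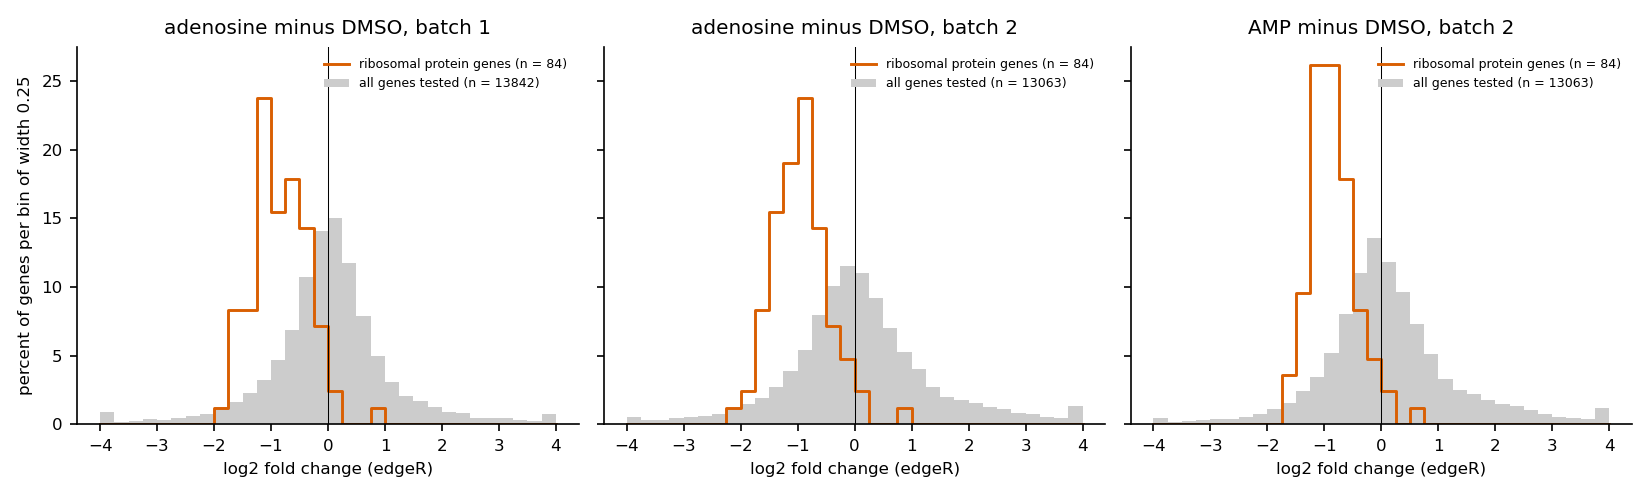
Distribution of edgeR log2 fold changes over all genes tested (grey bars) and over the 84 ribosomal protein genes tested (orange line), in percent of genes per bin of 0.25; genes beyond 4 in either direction are in the end bins. All genes centre near 0 in each comparison, while the members centre at -0.83, -0.97 and -0.90.

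The treated and DMSO libraries separated for most members. For 67 of 84 members all 3 adenosine libraries of batch 1 lay below all 3 DMSO libraries, which was so for 25.3% of all genes. In batch 2 the same held for 76 members with adenosine, against 36.9% of all genes, and for 77 with AMP, against 34.9%. Only Rps4l had all treated libraries above DMSO, in each of the 3 comparisons, as did 26.1%, 36.7% and 35.7% of all genes. Both subunits took part: 33 of 43 large subunit genes and 29 of 31 small subunit genes were lower in batch 1, 39 and 31 with adenosine in batch 2, and 40 and 31 with AMP. Called core members fell by 0.37 (Rps14) to 1.81 (Rps2) on the log2 scale in batch 1, by 0.31 (Rpl21) to 2.05 (Rpl7a) with adenosine in batch 2, and by 0.28 (Rpl35) to 1.57 (Rpl7a) with AMP. No core member was called higher in any of these comparisons under TMM, while library totals in place of TMM factors gave higher calls for Rplp0 with adenosine in batch 2 (0.39) and for Rpl18 in both batch 2 comparisons (0.28 and 0.29).

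**Figure D3:**
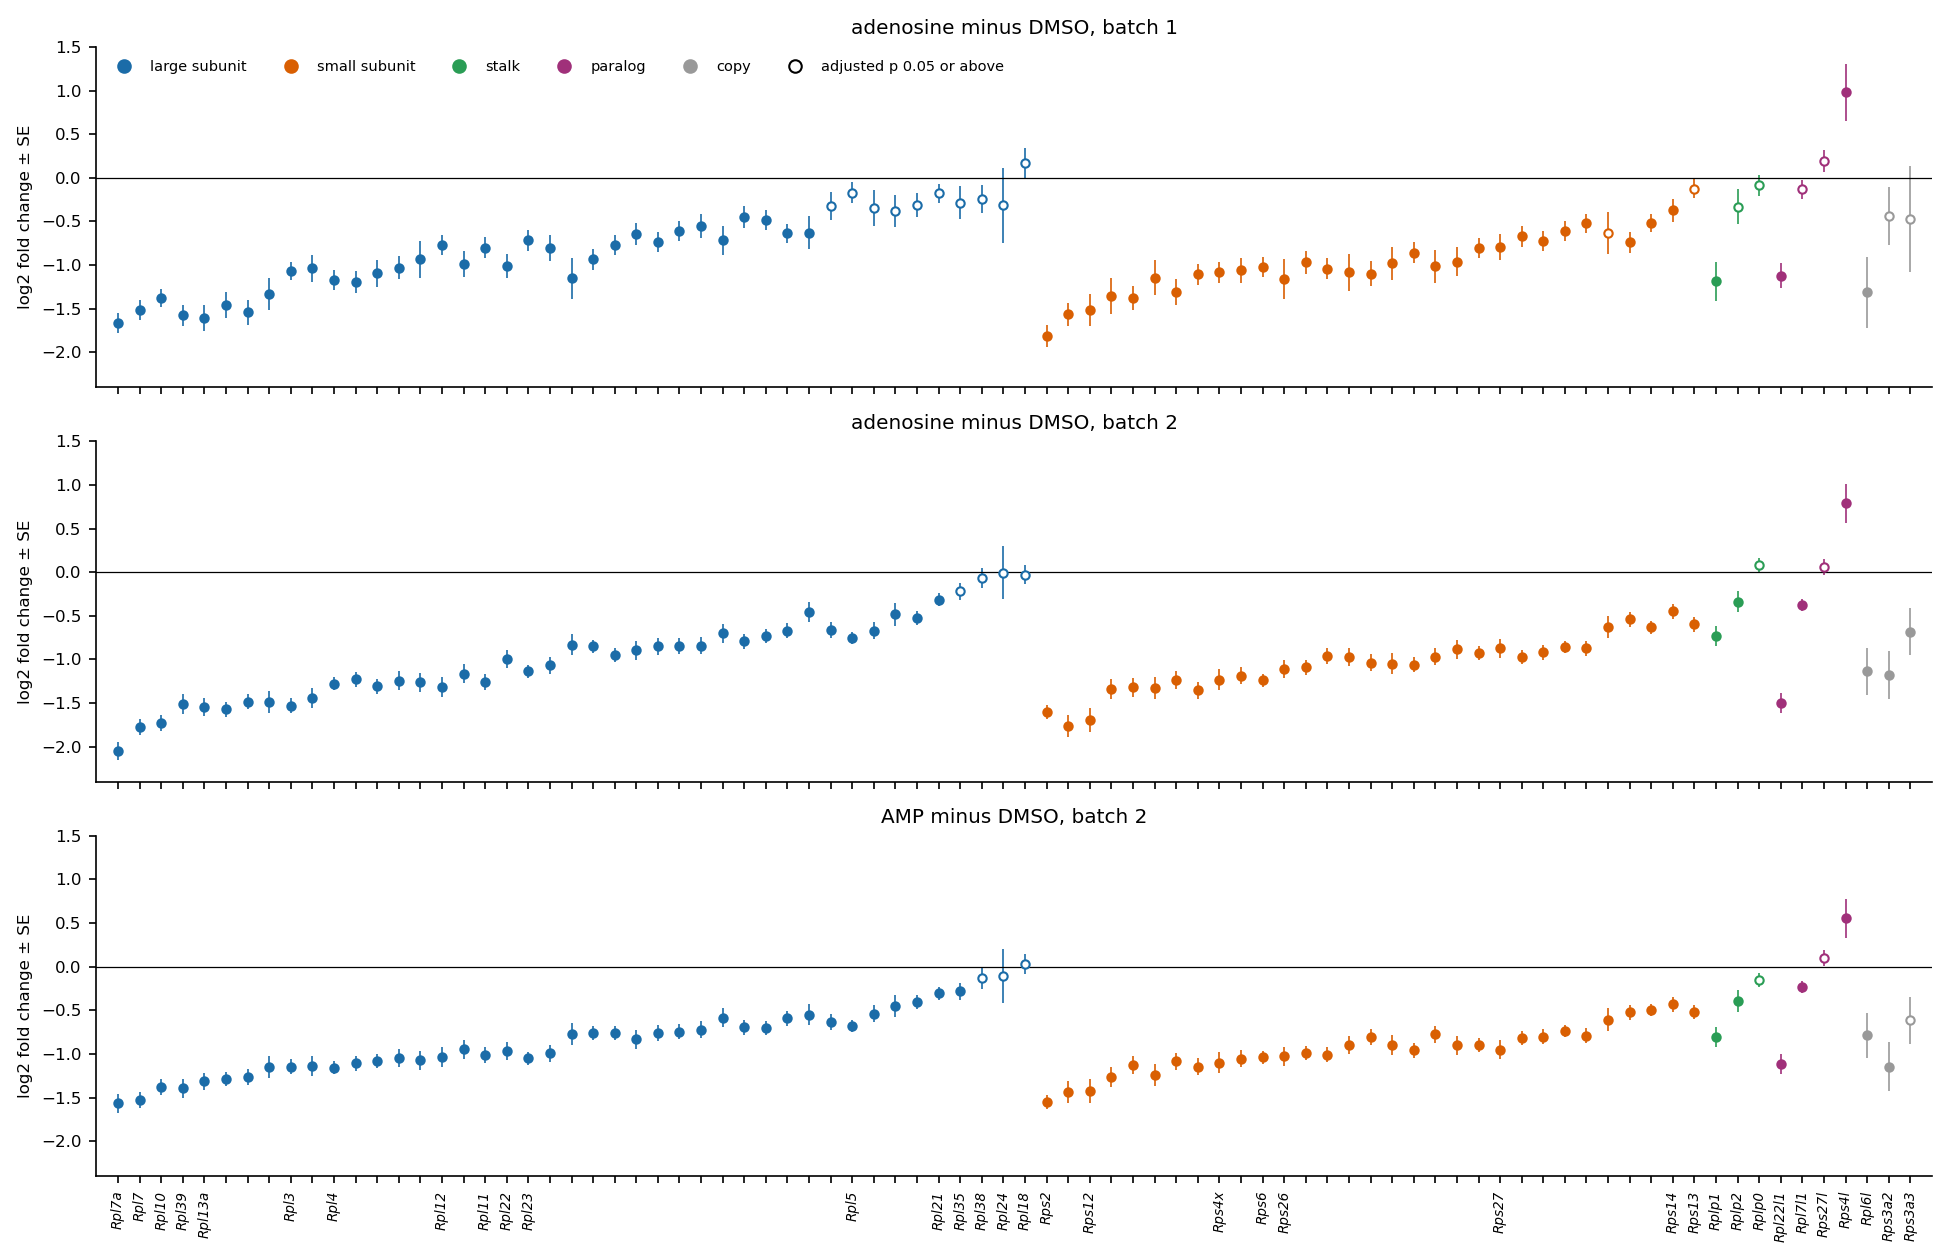
Log2 fold change ± SE of each of the 84 ribosomal protein genes tested (x axis, grouped by role, with labels for some genes named in the text) in the 3 comparisons with DMSO; open points did not pass an adjusted p of 0.05. The interquartile range of the members runs from -1.13 to -0.51 in batch 1, Rplp0, Rpl18, Rpl38, Rpl24 and Rps27l are drawn open in all 3 panels, and Rps4l lies above 0.

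Most members had the same call in the 3 comparisons with DMSO. Lower in all 3 were 65 members, higher in all 3 was Rps4l, and 11 were lower in both batch 2 comparisons and not called in batch 1. How many of all genes had each pattern was not counted. Of all 13842 genes tested in batch 1, 2706 were lower, so no more than these can be lower in all 3. The 2 comparisons of batch 2 share their DMSO libraries. Rps3a3 was lower only with adenosine in batch 2, and Rpl35 only with AMP. Rpl18, Rpl24, Rpl38, Rplp0 and Rps27l were called in none. In the authors' deposited table for batch 1, which rests on the same libraries, 86 members had an adjusted p. Of these, 65 were also lower and 1 higher with adenosine at the authors' adjusted p. The share of all genes called there was not counted.

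The small subunit gene Rps2 (chr17:24718116-24721929 on GRCm38), whose protein lines the entry channel for mRNA, fell by the most in batch 1. It measured 3514, 3729 and 4547 TMM-scaled CPM (counts scaled to library size and edgeR's factors) with DMSO and 1191, 1040 and 1126 with adenosine, or 3.51-fold lower (log2 -1.81 ± 0.12 SE, edgeR adjusted p 8.61e-07). In batch 2 its DMSO libraries measured 2455, 2533 and 2650, those with adenosine 813, 864 and 830, and those with AMP 958, 860 and 790. No treated library came within 2-fold of a DMSO library. The fitted change was -1.61 ± 0.08 with adenosine (adjusted p 1.94e-10) and -1.55 ± 0.08 with AMP (adjusted p 4.14e-10).

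Rpl7a (chr2:26910764-26913318), a large subunit gene that carries snoRNA genes in its introns, fell by the most in batch 2. Its DMSO libraries measured 1091, 1147 and 1150 CPM, those with adenosine 247, 274 and 297, and those with AMP 424, 411 and 309. The groups did not overlap, and adenosine lowered it 4.14-fold (log2 -2.05 ± 0.11, adjusted p 2.87e-10) and AMP 2.96-fold (log2 -1.57 ± 0.10, adjusted p 6.28e-09). With 0.05 mM adenosine in batch 1 it went from 1082, 1201 and 1333 to 398, 365 and 377, a 3.17-fold fall (log2 -1.67 ± 0.12, adjusted p 9.33e-07). Of the 75-base words of its coding transcripts, 77.4% also occur in a transcript of another gene, so part of its reads may not have been assignable. The part of this in its fall was not tested.

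The other large falls came from both subunits. Rpl13a, whose protein is also known to silence translation of inflammatory mRNAs, had a log2 fold change of -1.61 ± 0.15 in batch 1, -1.54 ± 0.10 with adenosine in batch 2 and -1.31 ± 0.10 with AMP. Rpl39, which lines the tunnel of the growing peptide, reached -1.58 ± 0.12, -1.51 ± 0.11 and -1.39 ± 0.11. Rpl7 and Rpl10 reached -1.51 ± 0.11 and -1.38 ± 0.11 in batch 1, -1.77 ± 0.10 and -1.73 ± 0.09 with adenosine in batch 2, and -1.53 ± 0.09 and -1.38 ± 0.09 with AMP. Rps12 measured 284, 328 and 440 CPM with DMSO in batch 1 and 152, 111 and 105 with adenosine, a change of -1.52 ± 0.18. Its batch 2 changes were -1.69 ± 0.14 and -1.43 ± 0.14. All of these passed the test in all 3 comparisons, and none of their treated libraries overlapped with DMSO.

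Rps6, Rpl11 and Rpl5, named above for their links to the S6 kinases and Mdm2, also fell, Rpl5 passing the test in batch 2 alone. Rps6 measured 956, 1053 and 1171 CPM with DMSO and 556, 500 and 510 with adenosine in batch 1 (log2 -1.02 ± 0.11, adjusted p 2.88e-05). In batch 2 it went from 1064, 1061 and 1128 to 442, 456 and 481 with adenosine (-1.24 ± 0.07) and to 571, 524 and 489 with AMP (-1.04 ± 0.07). Rpl11 changed by -0.80 ± 0.12 in batch 1 (adjusted p 3.09e-04), -1.26 ± 0.09 with adenosine in batch 2 and -1.01 ± 0.09 with AMP. Its partner Rpl5 (chr5:107900502-107909005) behaved differently in batch 1, with 982, 945 and 985 CPM with DMSO and 720, 928 and 936 with adenosine. The groups did not overlap, but the change of -0.17 ± 0.12 did not pass (adjusted p 0.287). In batch 2 Rpl5 fell from 1404, 1249 and 1332 CPM to 740, 816 and 803 with adenosine (-0.76 ± 0.07, adjusted p 1.62e-07) and to 821, 815 and 853 with AMP (-0.68 ± 0.07, adjusted p 7.07e-07). Exons of Fam69a, on the other strand, cover 24.3% of the exonic bases of Rpl5. Batch 1 was counted without strand or overlap options, so reads there had no unique owner. How batch 2 was counted is not given. Of the 10 listed ribosomal protein genes mutated in Diamond-Blackfan anaemia, a red cell aplasia, 9 were lower in batch 1, Rpl5 being the exception, and 10 in each comparison of batch 2. These counts were near those of the 77 core members, of which 63, 72 and 73 were lower. Of all genes, 19.5%, 34.5% and 31.8% were lower.

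The stalk, a flexible arm of the large subunit that recruits translation factors, did not change as a unit. Its anchor Rplp0 measured 4049, 4334 and 5238 CPM with DMSO and 4728, 3965 and 4126 with adenosine in batch 1, and the groups overlapped (log2 -0.09 ± 0.12, adjusted p 0.606). In batch 2 it measured 3432, 3431 and 3612 with DMSO, 3552, 3618 and 3915 with adenosine (0.08 ± 0.08, adjusted p 0.387) and 3495, 2924 and 3010 with AMP (-0.15 ± 0.08, adjusted p 0.116). Without AMP replicate 1 the AMP value was -0.23 and passed (adjusted p 0.0231). With library totals in place of TMM factors, a scaling that moved the median of all genes to 0.32 in that comparison, the adenosine value of Rplp0 in batch 2 became 0.39 (adjusted p 0.000597), and its batch 1 and AMP values turned to 0.11 each without passing. Rplp1, which binds Rplp0 as a dimer with Rplp2, measured 1083, 1184 and 1889 CPM with DMSO and 814, 536 and 478 with adenosine in batch 1 (-1.19 ± 0.22, adjusted p 0.00117). It was also lower in batch 2, by -0.73 ± 0.11 with adenosine and -0.80 ± 0.11 with AMP. Rplp2 had smaller values of -0.33 ± 0.20 (adjusted p 0.22), -0.34 ± 0.12 (adjusted p 0.0221) and -0.39 ± 0.12 (adjusted p 0.0101). The batch 2 calls of Rplp2 did not hold under library totals, at -0.02 and -0.13, or without DMSO replicate 3, at -0.27 (adjusted p 0.0994) and -0.33 (adjusted p 0.0535). The adenosine call was also lost without adenosine replicate 1 (-0.24, adjusted p 0.109) or 2 (-0.32, adjusted p 0.0557), and the AMP call without AMP replicate 3 (-0.29, adjusted p 0.0529). In batch 1 Rplp2 passed without DMSO replicate 1 (-0.53, adjusted p 0.0453).

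The other members called in no comparison were Rpl18, Rpl38 and Rpl24 among the core genes. Rpl18 measured 1188, 1311 and 1886 CPM with DMSO and 2012, 1441 and 1472 with adenosine in batch 1 (0.17 ± 0.18, adjusted p 0.482). In batch 2 its libraries spanned 1325 to 1397 with DMSO, 1245 to 1433 with adenosine (-0.03 ± 0.11) and 1118 to 1689 with AMP (0.03 ± 0.11). Its direction with adenosine in batch 2 depended on the scaling, since library totals gave 0.28 (adjusted p 0.0176). Rpl38, known for its part in the translation of Hox mRNAs, ranged from 187 to 297 CPM with DMSO and 190 to 240 with adenosine in batch 1 (-0.25 ± 0.16, adjusted p 0.252). Its batch 2 values were -0.07 ± 0.12 and -0.13 ± 0.12. Rpl24 could hardly be measured: its 6 batch 1 libraries held 28 to 78 counts each, or 1.80 to 4.30 CPM, and its SEs were 0.30 to 0.43. Of its exonic bases, 47.0% are also exons of Gm28037 on the same strand, and 80.9% of its 75-base words recur in another gene, so reads there had no unique owner.

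Overlap and repeated sequence were surveyed for every member, because the batch 1 counter was run without options for overlapping features or multiple hits. Exons of another gene, small RNAs aside, cover 10% or more of the exonic bases of 11 members, and the median member shares 32.6% of its 75-base words with another gene. Core members with less than 10% of their exons covered (67) had a median of -0.97 in batch 1 and 58 lower calls, and the other 10 had a median of -0.48 and 5 lower calls. In batch 2 with adenosine the medians were -1.04 and -0.80, and with AMP they were -0.96 and -0.71. Core members with at least 50% of their words repeated (25) had medians of -0.80, -0.92 and -0.81 in the 3 comparisons, and the other 52 had -0.95, -0.98 and -0.96. Members with no covered exon and a share of repeated words under the median differed among themselves. Rpl4, with 8.47% of its words repeated, changed by -1.17 ± 0.11, -1.28 ± 0.08 and -1.16 ± 0.08. Rplp0 (22.18%) and Rpl38 (23.05%) were called in no comparison with DMSO. The part of shared sequence in the falls was not tested.

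Of the 4 paralogs tested, Rpl22l1 fell with its parent gene, and Rps27l, Rpl7l1 and Rps4l had a higher ratio to theirs in each treated library than in any DMSO library of the batch. The parents Rps27, Rpl7 and Rps4x were lower in all 3 comparisons. How many of all genes would separate from these parents in the same way was not counted. Rps27l, a p53 target that differs from Rps27 by a few residues, measured 511, 610 and 662 CPM with DMSO and 621, 725 and 689 with adenosine in batch 1 (0.19 ± 0.12, adjusted p 0.243). In batch 2 it spanned 473 to 507 with DMSO, 434 to 580 with adenosine (0.06 ± 0.09) and 492 to 565 with AMP (0.10 ± 0.09), all overlapping. Under library totals Rps27l was called higher in all 3 comparisons, at 0.39, 0.37 and 0.36. Rps27 itself fell, by -0.79 ± 0.15, -0.87 ± 0.11 and -0.95 ± 0.11 with adjusted p of 0.00138, 2.89e-06 and 1.54e-06.

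The ratio of the pair is free of library scaling, but it may depend on repeated sequence. Of the 75-base words, 8.07% of those of Rps27l and 42.4% of those of Rps27 recur in another gene. Rps27l over Rps27, as a ratio of FPKM, was 1.496, 1.36 and 1.29 in the DMSO libraries of batch 1 and 2.16, 3.03 and 3.06 with adenosine. In batch 2 it was 1.26, 1.28 and 1.17 with DMSO, 2.48, 2.27 and 2.33 with adenosine and 2.59, 2.49 and 2.55 with AMP. Every treated library lay above every DMSO library of its batch, and the mean ratio was 1.99-, 1.91- and 2.06-fold that of DMSO. An exact two-sided permutation test of 3 against 3 libraries cannot go below 0.1, and it gave 0.1 in each of these (0.12 after Benjamini-Hochberg adjustment over the 12 ratio comparisons made).

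Rpl7l1, a nucleolar relative of Rpl7, held closer to its DMSO level than its parent. It measured 341, 348 and 371 CPM with DMSO and 305, 320 and 342 with adenosine in batch 1 (-0.13 ± 0.11, adjusted p 0.363). It was called lower in batch 2, at -0.37 ± 0.07 with adenosine and -0.24 ± 0.07 with AMP, although library totals removed both calls and gave -0.06 and 0.03, with 0.07 in batch 1. Its ratio to Rpl7 went from 0.231 ± 0.017 to 0.601 ± 0.020 in batch 1, from 0.155 ± 0.0054 to 0.410 ± 0.0062 with adenosine in batch 2 and to 0.388 ± 0.079 with AMP (SD, n = 3), with no overlap and an exact permutation p of 0.1 each. Repeated words make up 3.14% of Rpl7l1 and 37.8% of Rpl7. Rpl22l1 fell together with Rpl22, by -1.12 ± 0.14 beside -1.01 ± 0.13 in batch 1, -1.50 ± 0.11 beside -0.99 ± 0.10 with adenosine in batch 2, and -1.11 ± 0.11 beside -0.96 ± 0.10 with AMP. Their ratio overlapped with DMSO in batch 1 and with AMP, and it lay below DMSO in batch 2 with adenosine, at 0.393 ± 0.014 against 0.557 ± 0.056 (exact permutation p 0.1).

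Rps4l was the 1 member called higher in the comparisons with DMSO, at a low level. Its libraries measured 15.6, 12.2 and 14.9 CPM with DMSO and 47.6, 18.4 and 18.7 with adenosine in batch 1 (0.98 ± 0.32, adjusted p 0.0299). Adenosine replicate 1 set that value: without it the change was 0.35 (adjusted p 0.231). The call was also lost without DMSO replicate 2 (adjusted p 0.0926) or 3 (adjusted p 0.056). In batch 2 it went from 5.52, 7.06 and 5.49 CPM to 8.03, 13.5 and 9.52 with adenosine (0.79 ± 0.22, adjusted p 0.00533) and 10.4, 8.81 and 7.29 with AMP (0.55 ± 0.23, adjusted p 0.0427). The AMP call was lost without DMSO replicate 1 or 3, adenosine replicate 3, or AMP replicate 1 or 2, with adjusted p of 0.0511 to 0.153. Its parent Rps4x fell by -1.08 ± 0.12, -1.23 ± 0.12 and -1.10 ± 0.12. Of the 75-base words, 6.67% of those of Rps4l and 52.9% of those of Rps4x recur in another gene. Of the remaining paralogs, Rpl3l, the muscle form of Rpl3, and Rpl39l, a form known from testis, were at or below 0.07 and 0.54 FPKM in every batch 1 library. With the copy Rps12l1, at 1.53 FPKM or less, they fell below the filter on low counts in batch 1 and were not among the batch 2 genes, so they were not tested. The copies Rpl6l, Rps3a2 and Rps3a3 stood at 14.1 CPM or less, and 69.4%, 86.3% and 45.3% of their 75-base words recur in another gene, so their counts are uncertain.

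**Figure D4:**
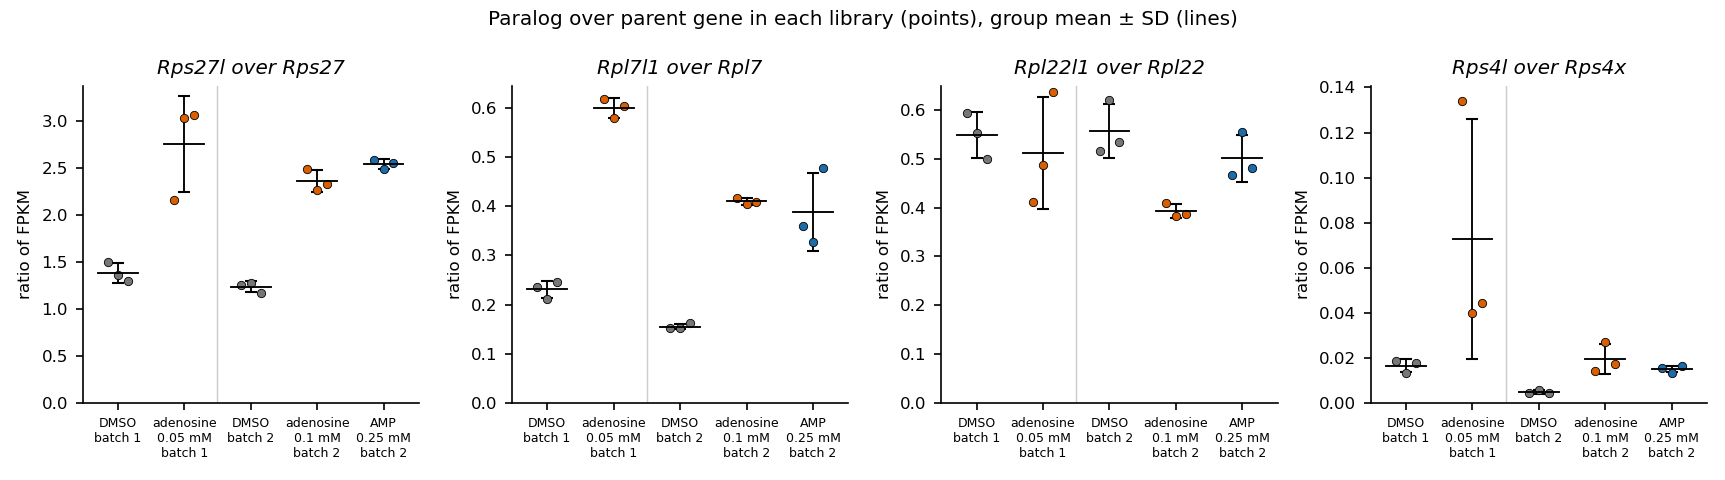
Ratio of the FPKM of 4 paralogs to that of their parent gene in each library (points), with the group mean and SD (lines, n = 3). Rps27l over Rps27 and Rpl7l1 over Rpl7 lie above DMSO in every treated library, Rpl22l1 over Rpl22 overlaps with DMSO except for adenosine in batch 2, and the Rps4l ratio of batch 1 spreads from 0.040 to 0.134 with adenosine.

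Adenosine gave much the same ranking of members in both batches, although its dose and the batch changed together. Across the 77 core genes the log2 fold changes of the batches correlated with Pearson's r of 0.887 and Spearman's rho of 0.878. This describes genes of separate libraries that share gene lengths, annotation and the same assay, and genes are not independent replicates. The fold change was only weakly related to the level with DMSO (r of -0.22 in each batch) and to exon length (r of -0.02 and -0.14) across these genes. The difference between the batches was tested as an interaction over all 15 libraries: 5 of 84 members were called lower, none was called higher, and the median difference was -0.14. Over all 13042 genes in that fit, 5.69% were called lower and 6.3% higher, or 12% in either direction, so the share of members called lower was near that of all genes. The 5 were Rpl5 (-0.58 ± 0.13, adjusted p 0.00808), Rpl12 (-0.53 ± 0.17, adjusted p 0.0432), Rps13 (-0.47 ± 0.13, adjusted p 0.023), Rpl3 (-0.46 ± 0.12, adjusted p 0.0211) and Rpl23 (-0.42 ± 0.13, adjusted p 0.0499). A dose effect and a batch effect cannot be told apart here. Leaving out single libraries gave 1 to 7 members. Rpl5 was called under each setting tried, while Rpl12, Rps13, Rpl3 and Rpl23 were each lost under library totals and without several single libraries, DMSO replicates 2 and 3 of batch 2 among them.

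**Figure D5:**
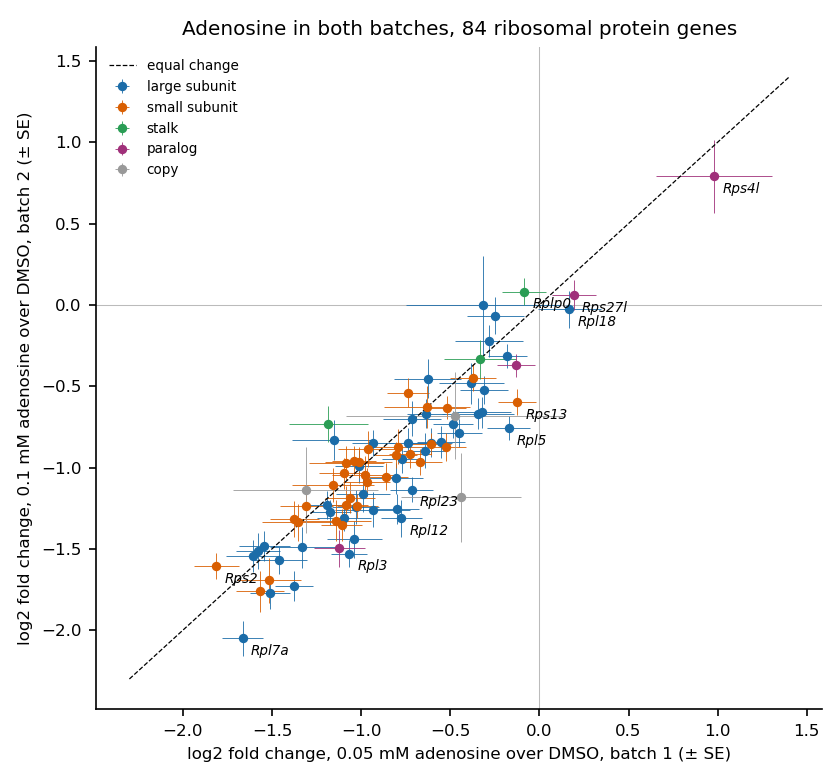
Log2 fold change ± SE of the 84 ribosomal protein genes with 0.05 mM adenosine in batch 1 (x axis) against 0.1 mM adenosine in batch 2 (y axis); the dashed line marks equal change. Points follow the line (r of 0.903 over 84 genes), with Rpl5, Rps13, Rpl12, Rpl23 and Rpl3 below it and Rps4l, at 0.98 and 0.79, farthest to the upper right.

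AMP and adenosine were compared within batch 2 at unequal doses. Of 84 members, 3 were higher with 0.25 mM AMP than with 0.1 mM adenosine and none was lower, over a background of 4.52% of all genes higher and 2% lower (6.51% in either direction), and the member median was 0.10. All 3 AMP libraries lay above all 3 adenosine libraries for 8 members and below them for 1, against 12.7% and 10.9% of all genes. With all libraries kept, the shares of members called or separated in this way thus did not exceed those of all genes. Rpl7a was higher by 0.48 ± 0.10 (adjusted p 0.00937), Rpl3, a protein near the peptidyl transferase centre, by 0.38 ± 0.08 (adjusted p 0.0104) and Rpl10, which joins the large subunit last, by 0.35 ± 0.09 (adjusted p 0.033). Rpl3 measured 845, 812 and 665 CPM with AMP against 581, 600 and 600 with adenosine and 1681, 1720 and 1738 with DMSO, so it stood between the other groups. AMP replicate 3 was the lowest of its group in all 3 genes. Without it 25 members were called higher, and without AMP replicate 1 none was, so the count rests on single libraries. Fits without 1 library called 304 to 710 of all genes higher. Without AMP replicate 3 the share of members called higher thus exceeded that of all genes.

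Features that the naming rule did not use were set beside the falls. RefSeq start regions were at hand for 62 members, of which 32 (51.6%) hold C followed by at least 7 pyrimidines within 20 bases of an annotated start on the sense strand, against 16.6% of 27025 genes. The motif CTTTCC on the sense strand of the 300-base region occurs in 40.3% of members and 16.0% of genes, and GGAAGTG, the core of ETS factor sites, on either strand in 22.6% and 12.5%. AAGATGGC, a word of YY1 sites, occurs on either strand in 9.68% and 3.19%. CTTTCC can overlap with the pyrimidine run. Where transcripts begin in these cells was not measured, and the run may lie up to 20 bases from an annotated start. Members with the run are thus not shown to have a TOP motif, nor those without it to lack one. Core members with the run (30) had medians of -0.98, -1.07 and -0.97 in the 3 comparisons, and those without it (27) had -0.86, -0.97 and -0.90. Of the core members, 30 hold at least 1 snoRNA gene inside their bounds, Rpl4, Rpl13a and Rps12 among them. Their medians were -0.82, -1.19 and -1.04, and those of the other 47 were -0.94, -0.96 and -0.89.

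Other genes of the translation machinery were counted from fixed lists. The ribosomal proteins that the naming rule misses are reported in part. Rack1, a scaffold on the small subunit, was lower in all 3 comparisons (-0.48 ± 0.11, -0.75 ± 0.10 and -0.65 ± 0.10). Fau and Rpl36al were lower in batch 2, at -0.28 to -0.30, and did not pass in batch 1, at -0.39 and -0.07. Of 19 translation factors and other mRNAs known for a TOP motif, 12 were lower with adenosine in batch 1, 16 in batch 2 and 17 with AMP, and none was higher. The shares of all genes lower in these comparisons were 19.5%, 34.5% and 31.8%. The 19 listed TOP mRNAs had median log2 fold changes of -0.61, -0.79 and -0.73. Among them the elongation factor mRNA Eef1a1 changed by -1.52, -1.91 and -1.70 and Eef2 by -1.35, -1.58 and -1.23. The Eef1a1 values were the lowest of the list in batch 1 and with AMP. Of 33 ribosome assembly factors and RNA polymerase I genes tested, 8, 30 and 22 were lower and 1, 0 and 1 higher, with medians of -0.10, -0.48 and -0.27. In batch 1 that count of assembly factors lower was near the share of all genes, 19.5%. Of 77 genes of the mitochondrial ribosome, 11 were lower and 12 higher in batch 1, with a median of 0.03. In batch 2 more of them were lower than higher, 32 against 16 with adenosine and 34 against 15 with AMP, with medians of -0.17 and -0.14.

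Of 14 regulators of ribosomal protein synthesis, 3 were higher and 4 lower in batch 1, 5 and 6 with adenosine in batch 2, and 5 and 4 with AMP. These counts lie near the shares of all genes higher and lower, 19.6% and 19.5% in batch 1, 34.9% and 34.5% with adenosine in batch 2, and 33.7% and 31.8% with AMP. Ddit4, an inhibitor of mTORC1, rose by 1.12 ± 0.15 in batch 1 (adjusted p 1.13e-04), 3.12 ± 0.11 with adenosine in batch 2 and 2.65 ± 0.11 with AMP. These were the highest values of the 14 regulators, whose medians were -0.01, -0.15 and 0.12. Mdm2, which Rpl5 and Rpl11 bind, rose by 0.90 ± 0.12, 0.72 ± 0.07 and 0.74 ± 0.07. Eif4ebp1, a translational repressor inhibited by mTORC1, fell, with values of -0.81 ± 0.13, -1.15 ± 0.08 and -0.71 ± 0.08. Its value with adenosine in batch 2 was the lowest of the 14. Myc, an activator of ribosome production, had values of -0.09 ± 0.15, -0.22 ± 0.09 and 0.10 ± 0.09 and was called in batch 2 with adenosine alone (adjusted p 0.0355). Whether any of these regulators bears on the ribosomal protein mRNAs was not tested.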

How the data were processed

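Counts per gene were deposited by the authors for each batch. Per the file headers, batch 1 was counted with featureCounts 1.6.4 in paired-end mode over Ensembl GRCm38 exons, with no strand, multiple-hit or overlap option. Per the submitters' processing notes, Trim Galore, STAR, featureCounts, Subread, DESeq2 and mm10 were used; how batch 2 was counted is not given in the sources used here. Libraries were made by Smart-seq2 and Tn5, per the labels' protocols, which does not mark strand. The deposited batch 2 table had been filtered (smallest gene total 101), and its 43 lines naming no gene (0.0589% of counts) were left out. FPKM values were deposited for both batches, with the authors' log2 fold changes and adjusted p-values for batch 1, coded as DMSO over adenosine.

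edgeR 4.0.16 (R 4.3.3) was run with TMM factors, filterByExpr and its two-sided quasi-likelihood test, on 6 libraries for batch 1, 9 for batch 2 and 15 for the interaction. SEs were taken as the size of the log2 fold change divided by √F. Alternatives used DESeq2 1.42.0, limma 3.58.1 and those named in the closing section. The fits were tested on simulated data. Replicate numbers were not taken to pair libraries.

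The members and lists were chosen with earlier results of these data known. Named by rule are the 5 highest members in FPKM, the 5 largest falls and rises per comparison, paralogs with parents, stalk genes, Rpl5, Rpl11, Rps6 and members never called. Rpl21, Rpl35, Rps14 and the copies, outside the rule, were named after their values were seen. Eef1a1, Eef2, Ddit4, Mdm2, Eif4ebp1 and Myc also lay outside it, since the rule gives their lists as counts. Some results that this rule names are not reported here. Groups came from the labels. Repeated sequence was measured over GENCODE vM21 transcripts.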

Additional observations from a re-analysis of the deposited data

Results flagged for a closer look

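The adenosine effect differed between the batches, by the interaction test over all 15 libraries with edgeR, for 5 of 84 ribosomal protein genes, all called lower, where 5.69% of all genes were called lower. The batch 2 change minus the batch 1 change was -0.578 on the log2 scale for Rpl5, -0.532 for Rpl12, -0.466 for Rps13, -0.456 for Rpl3 and -0.415 for Rpl23. In batch 1 Rpl5 and Rps13 did not pass, at -0.17 and -0.13, while Rpl12, Rpl3 and Rpl23 were lower in both batches. Rpl5 was called under each setting tried, and Rpl12, Rps13, Rpl3 and Rpl23 were lost under library totals (adjusted p 0.0727, 0.0727, 0.0615 and 0.167) and without several single libraries. Dose and batch changed together, so their parts cannot be told apart.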

How the results depend on the processing

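The lower counts of members held within 1.5 times under every setting for the 3 comparisons with DMSO. Library totals without TMM factors moved the median of all genes to 0.223, 0.323 and 0.279 and the member medians to -0.636, -0.656 and -0.633, which is -0.859, -0.979 and -0.911 relative to those shifts. They also gave 2, 4 and 3 members higher, and reversed Rpl18 with adenosine in batch 2 (0.281) and Rpl7l1 with AMP (0.034). Genes called lower under library totals went down to 2891 (adenosine, batch 2) and 2605 (AMP). In the interaction, 1 member and 333 genes were called lower under these totals. Genes with at least 10 CPM, where Rps4l is not tested, gave 0 members higher in batch 2 for both compounds and 3 lower in the interaction. limma on log2(FPKM + 1) and log2(FPKM + 0.1) gave 0 higher in batch 1, 376 and 363 genes higher for AMP minus adenosine, and with 0.1 1 member higher there. DESeq2 gave 5 members higher and 1 lower for AMP minus adenosine. The cause was not tested for these.

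Without single libraries, batch 1 gave 61 to 71 members lower, 0 to 1 higher and medians of -0.951 to -0.745, with 2183 to 2659 genes lower and 2048 to 2418 higher. Batch 2 gave 75 to 78 lower with adenosine (1 higher, medians -1.03 to -0.887) and 74 to 78 with AMP (0 to 1 higher, medians -0.952 to -0.777). AMP minus adenosine gave 0 to 25 members higher, 0 to 1 lower, and 304 to 710 genes higher and 104 to 281 lower. The interaction gave 1 to 7 members lower, with 374 to 1029 genes lower and 522 to 1034 higher. The ratio of each paralog to its parent, recomputed without each library after the data were seen, kept its direction in 11 of 12 comparisons; that of Rpl22l1 in batch 1 ran from 0.818 to 1.02 of DMSO.

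The replicate number as a block gave 64, 78 and 77 members lower, and 5 higher instead of 3 for AMP minus adenosine. Same-numbered libraries correlated in their deviations by -0.026 to 0.088 in batch 1 and -0.073 to 0.3 in batch 2. In batch 2 their median was 0.106, against -0.0685 for libraries of different numbers. Since some same-numbered pairs lay below 0.1, the fits reported treat libraries as unpaired. Whether the libraries of batch 2 are paired is not settled by these values.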
